A study of Homo sapiens with 6 samples.

Results

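The mRNA levels of 41 genes of the ATF4 and unfolded protein response pathways were compared between OVCAR-3 cells carrying a scrambled shRNA (OV3/SCR) and OVCAR-3 cells carrying an shRNA against COX-1 (OV3/COX1KD). The genes were chosen by name from knowledge of the pathways, with earlier results of these data known. They were found by symbol among the 34811 genes of the count table. All 41 were present and all 41 were among the 17309 genes with enough reads to be tested. OVCAR-3 is an established line representative of high-grade serous ovarian cancer. OV3/SCR cells carried scrambled HuSH-29 shRNA in the vector pRS and kept wild-type COX-1, and OV3/COX1KD cells carried HuSH-29 shRNA to COX-1 in the same vector. Cells of both conditions had been selected with puromycin and were grown untreated in RPMI-1640 medium with fetal bovine serum. Each condition was 1 selected clone sampled in 3 libraries from independent passages, so a difference between clones and an effect of the knockdown cannot be told apart here. Every p-value below therefore measures the spread between passages of a clone. Knockdown, COX-1 activity and unfolded protein response activity were not manipulated separately, and no ER stress inducer was applied.

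The unfolded protein response is set off when unfolded proteins accumulate in the endoplasmic reticulum (ER). It runs through 3 sensors in the ER membrane: PERK (gene EIF2AK3), IRE1 (gene ERN1) and ATF6. PERK phosphorylates the initiation factor eIF2, which slows translation in general while favouring translation of the transcription factor ATF4. Other eIF2 kinases reach ATF4 in the same way when amino acids or heme are short, and this shared route is called the integrated stress response. IRE1 splices the XBP1 mRNA into the form that encodes an active transcription factor, and ATF6 is cut in the Golgi to release one. ATF6 and spliced XBP1 are known for raising ER chaperones and degradation factors, and ATF4 for raising genes of amino acid supply, tRNA charging and stress feedback. Gene-level read counts show none of the translation of ATF4, the splicing of XBP1 or the cleavage of ATF6.

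The libraries held between 25291505 and 27391538 counted reads. The targeted gene PTGS1, which encodes COX-1, was lower in OV3/COX1KD, at 18.7 ± 0.638 CPM (reads scaled to a common library total by TMM, SD, n = 3) against 25.6 ± 1.02 in OV3/SCR, a log2 fold change of -0.45 (SE 0.057, FDR 1.34e-06). All fold changes are OV3/COX1KD over OV3/SCR on the log2 scale, fitted with edgeR (quasi-likelihood). The FDR is the Benjamini-Hochberg value over all tested genes, and a gene was called at an FDR under 0.01. The 7 epithelial markers examined (PAX8, KRT7, KRT8, KRT18, EPCAM, MUC16 and CDH1) all had at least 4346 reads in every library. In OV3/COX1KD, 5 of these markers were higher and 2 (PAX8 and KRT7) were lower. Leukocyte, endothelial and fibroblast markers were near the floor apart from COL1A1, at 143 to 270 reads and lower in OV3/COX1KD, and VWF, at 25 to 52 reads. PTPRC, CD3E, CD14 and CDH5 had between 0 and 14 reads in any library. The 9 markers of those other cell types summed to 347 to 362 reads per OV3/SCR library and 228 to 243 per OV3/COX1KD library, and their part in the results below was not tested. In bulk RNA, fewer cells with a transcript and less of it per cell cannot be told apart.

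Of the 41 genes, 22 were higher in OV3/COX1KD, 8 were lower and 11 were not called. The 2 clones differed widely, and the same test called 47.9% of all tested genes, with 25.8% higher and 22.1% lower. Well-measured genes were called more often, 57.7% of those whose mean log2 CPM was 1 or more, a level that all 41 genes passed. The median log2 fold change of the 41 genes was 0.19, with a range of -0.76 to 0.74, against a median of -0.0087 over all tested genes. A change beyond 0.5 on the log2 scale was called upward for 10 of the 41 genes and downward for 2, where the background shares were 9.87% and 10.0%. The libraries of the conditions did not overlap in CPM for 35 of the 41 genes, 24 with OV3/COX1KD above and 11 with it below, where 63.2% of all tested genes did not overlap. That share is the background for each statement of overlap below. Scaling by total counts in place of TMM moved the split of the 41 genes to 19 higher and 12 lower, and that of all genes from 4473 higher and 3820 lower to 3468 higher and 4971 lower.

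The direction differed by role. Among the 9 ER chaperones and disulfide isomerases, 8 (88.9%) were higher and 0 lower, with a median log2 fold change of 0.66. Over all tested genes, 25.8% were higher and 22.1% lower. All 17 genes of ER roles gave 11 higher (64.7%), 1 lower (5.88%) and a median of 0.35. The 24 genes of the ATF4 side gave 11 higher (45.8%), 7 lower (29.2%) and a median of 0.058. In the sum of reads, the 41 genes took 0.907% to 0.915% of an OV3/SCR library and 1.18% to 1.20% of an OV3/COX1KD library. The chaperones and isomerases made up most of that gain, with 0.561% to 0.567% of each OV3/SCR library and 0.833% to 0.838% of each OV3/COX1KD library. The 24 genes of the ATF4 side held 0.290% to 0.293% and 0.288% to 0.292%, ranges that overlapped. All these shares are of the raw library total, without the TMM factors behind the CPM and fold changes. Those factors were 1.02 to 1.04 in OV3/SCR and 0.970 to 0.977 in OV3/COX1KD. TMM scaling therefore moves OV3/COX1KD up against OV3/SCR, and the overlap holds for the unscaled shares only.

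**Figure D1:**
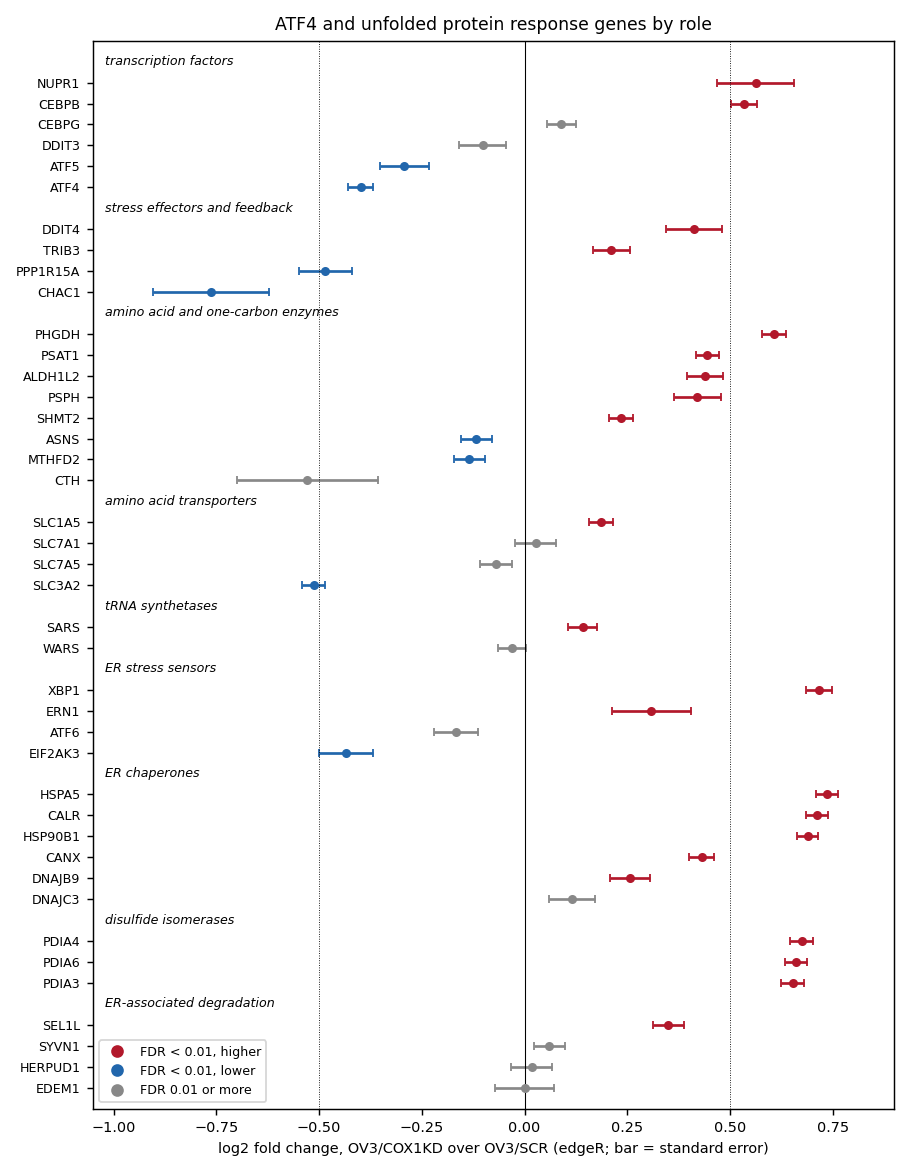
Log2 fold change (OV3/COX1KD over OV3/SCR, horizontal axis) of each of the 41 genes, grouped by role, with bars of 1 standard error from edgeR and dotted lines at 0.5 either way. The disulfide isomerases lie between 0.65 and 0.67, whereas the roles on the ATF4 side hold genes on both sides of 0. XBP1, the splicing target of IRE1, is drawn with the ER stress sensors.

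In OV3/COX1KD, 5 of the 6 ER chaperones were higher (83.3%, against 25.8% of all tested genes) and the other was not called. HSPA5 (ENSG00000044574, GRCh37 chromosome 9, 127997132 to 128003661) encodes BiP, the HSP70 chaperone of the ER lumen that also holds the 3 sensors inactive. HSPA5 had 21777, 21081 and 21501 reads in OV3/SCR replicates 1 to 3 and 34714, 33832 and 36320 in OV3/COX1KD. Every OV3/COX1KD library stood above every OV3/SCR library, and the mean went from 818 ± 11.5 to 1362 ± 14.6 CPM, a 1.67-fold difference (log2 0.74, SE 0.027, FDR 1.5e-14). HSP90B1 (ENSG00000166598, chromosome 12, 104323885 to 104347709) encodes GRP94, the HSP90 of the ER. HSP90B1 had 42916, 41735 and 41612 reads in OV3/SCR and 64862, 65852 and 68390 in OV3/COX1KD, again without overlap (log2 0.69, SE 0.026, FDR 2.16e-14). Within a library, HSP90B1 had 1.96 ± 0.0235 reads for each HSPA5 read in OV3/SCR and 1.90 ± 0.0415 in OV3/COX1KD (SD, n = 3 each), so that both transcripts moved by nearly the same factor.

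The lectin chaperones of the calnexin cycle, which hold newly glycosylated proteins until they fold, were also higher. CALR (ENSG00000179218, chromosome 19, 13049392 to 13055303), encoding soluble calreticulin, had 15895, 15601 and 15618 reads in OV3/SCR and 24882, 24447 and 26119 in OV3/COX1KD (log2 0.71, SE 0.027, FDR 2.12e-14). CANX, encoding its membrane-bound relative calnexin, had 25766, 25267 and 25294 against 33537, 31276 and 35935 reads (log2 0.43, SE 0.031, FDR 3.14e-10). Neither gene's libraries overlapped (nor did those of 63.2% of all tested genes), and the rise of CALR was the larger. The reads of CALR per read of CANX were 0.617 ± 0.00032 in OV3/SCR and 0.750 ± 0.0283 in OV3/COX1KD (SD, n = 3 each).

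The HSP40 co-chaperones, which feed substrates to BiP, moved less. DNAJB9 (ERdj4), which returns IRE1 to its BiP-bound state, had 711 to 759 reads in OV3/SCR and 824 to 896 in OV3/COX1KD (log2 0.26, SE 0.048, FDR 0.000128). DNAJC3 (p58IPK), known as an inhibitor of PERK, had 703 to 750 and 722 to 803 reads, and its log2 fold change of 0.12 (SE 0.055) was not called (FDR 0.079). The 3 disulfide isomerases, which form and rearrange disulfide bonds in the ER, were all higher and by nearly equal steps. PDIA3 (ERp57), the partner of CALR and CANX, had 18760, 19135 and 19151 reads in OV3/SCR and 28950, 28783 and 29975 in OV3/COX1KD (log2 0.65, SE 0.029, FDR 2.15e-13). PDIA4 (ERp72) had 11936, 12018 and 12009 against 18755, 17998 and 19412 (log2 0.67, SE 0.029, FDR 1.28e-13). PDIA6 (P5), known for switching off IRE1 and PERK signalling, had 7001, 6768 and 6699 against 10402, 10218 and 11037 (log2 0.66, SE 0.028, FDR 1.14e-13). None of the 3 overlapped between conditions, nor did 63.2% of all tested genes. ATP6V1C2, on the opposite strand, covers 25.2% of the annotated exons of PDIA6 and had 97 to 146 reads, and whether reads were counted by strand is not given in the sources used here.

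**Figure D2:**
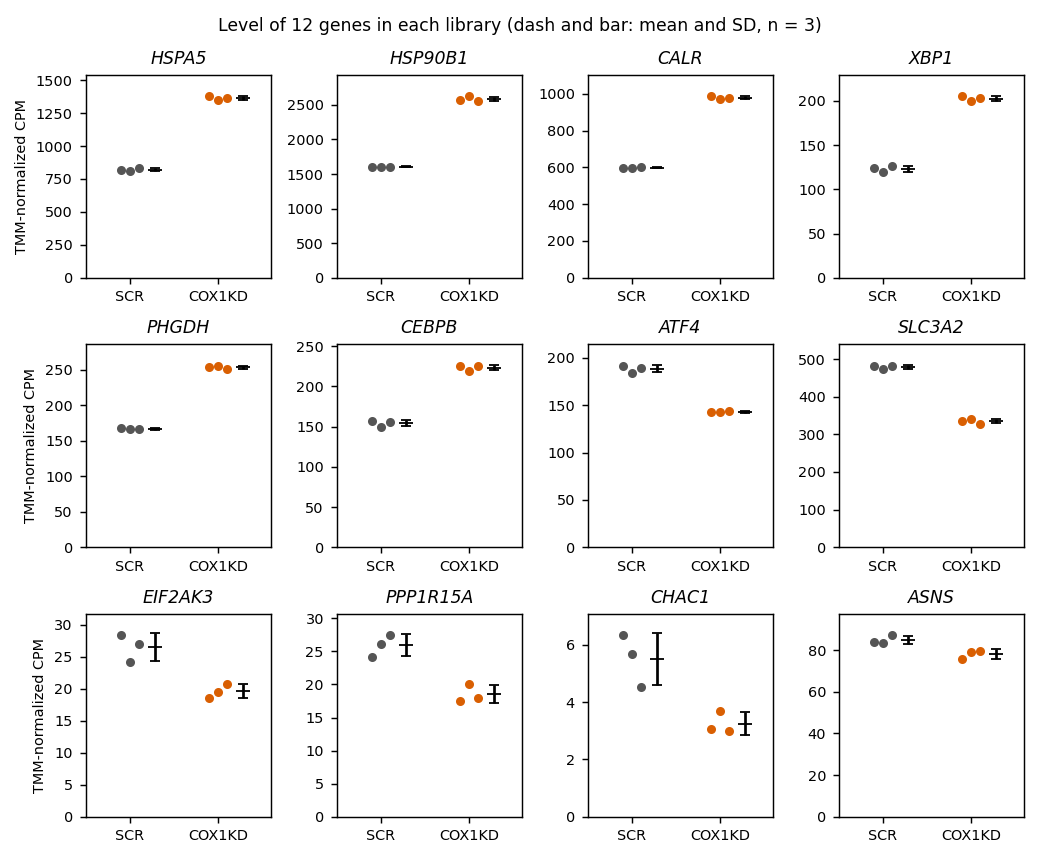
TMM-normalized CPM (vertical axes, from 0) of 12 genes in each of the 3 OV3/SCR (grey) and 3 OV3/COX1KD (orange) libraries, with the mean and SD beside the points. The top row (HSPA5, HSP90B1, CALR and XBP1) is higher in all 3 OV3/COX1KD libraries and the bottom row (EIF2AK3, PPP1R15A, CHAC1 and ASNS) is lower, with the smallest gap in ASNS.

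Several of these genes carry the promoter element through which ATF6 and XBP1 are known to act. This ER stress response element (ERSE) was searched for as CCAAT, then any 9 bases, then CCACG, on both strands, in the RefSeq window of 250 bases before to 50 bases after each gene's start (GRCh38.p14, whereas the gene positions above are in GRCh37, the build of the counts). A window was found for 36 of the 41 genes, with WARS and SARS under their current names WARS1 and SARS1, and none for PSPH, SHMT2, NUPR1, PDIA3 and ALDH1L2. The letters occurred in 27 of 35116 windows (0.0769%), or 25 of 27305 genes (0.0916%), and in 6 of the 36 genes (16.7%). The 6 were HSPA5, HSP90B1, CALR, CANX, PDIA6 and XBP1. The 250 bases before the start of HSPA5 and HSP90B1 are shown whole, as the best known ER stress promoters, and the others as the stretch around the match, 5′ to 3′ on the gene's strand with the ERSE in capitals.
HSPA5 (chr9:125241344-125241593, minus strand): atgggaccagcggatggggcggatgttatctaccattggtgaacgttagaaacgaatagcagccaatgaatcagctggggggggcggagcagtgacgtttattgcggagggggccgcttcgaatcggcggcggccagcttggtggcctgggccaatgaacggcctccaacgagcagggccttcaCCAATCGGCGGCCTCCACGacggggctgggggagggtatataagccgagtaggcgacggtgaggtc
HSP90B1 (chr12:103930160-103930409, plus strand): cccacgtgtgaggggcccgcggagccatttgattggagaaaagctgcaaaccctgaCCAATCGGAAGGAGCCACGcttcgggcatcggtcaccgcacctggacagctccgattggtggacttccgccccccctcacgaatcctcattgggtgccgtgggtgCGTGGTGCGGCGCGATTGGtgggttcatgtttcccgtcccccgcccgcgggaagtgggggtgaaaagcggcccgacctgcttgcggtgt
CALR (chr19:12938359-12938432, plus strand): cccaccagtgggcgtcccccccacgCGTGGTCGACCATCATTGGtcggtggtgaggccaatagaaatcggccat
CANX (chr5:179698748-179698816, plus strand): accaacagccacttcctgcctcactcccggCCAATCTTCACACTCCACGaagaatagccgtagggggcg
PDIA6 (chr2:10812823-10812901, minus strand): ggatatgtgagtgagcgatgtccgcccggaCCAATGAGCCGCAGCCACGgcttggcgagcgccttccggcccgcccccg
XBP1 (chr22:28800573-28800651, minus strand): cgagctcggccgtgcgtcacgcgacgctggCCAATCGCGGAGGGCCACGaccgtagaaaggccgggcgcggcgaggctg

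HSP90B1 held 2 matches, with first bases at -194 and -89 from the start, the later one in the reverse direction, as was the match of CALR. The first base of the match lay at -66 from the start in HSPA5, -225 in CALR, -86 in PDIA6 and -52 in XBP1. The match of CANX lay at -9, -151 or -189, depending on which of its annotated starts is counted from. CANX, PDIA6 and XBP1 also had a window at 1 other start each that held no match. All 6 genes were higher in OV3/COX1KD (against 25.8% of all tested genes), with a median log2 fold change of 0.70. The 30 genes whose windows did not hold these letters had a median of 0.022. All but XBP1 are chaperones or isomerases already given above, so this contrast largely repeats the one by role. As the element was already known from promoters of this kind, its presence in them was no test. PDIA4 stood at 0.67 without a match in its window, and CANX was the lowest of the 6. The same letters were found in 19 genes outside the 41, of which 11 were tested. Of these 11, 3 were higher (ALG12 at 0.28, CRELD2 at 0.29 and SERP1 at 0.29), 2 were lower (SYNPO at -0.51, and FRG2C at -1.53 on 4 to 22 reads) and 6 were not called, with a median of 0.074. Among all tested genes 47.9% were called, with 25.8% higher and 22.1% lower. The genes outside the 41 were named after their values were seen. Stretches that differ from these letters were not searched for, so a window may hold variants of the element that are not counted here. A match is a description of letters and no measurement of binding, and no binding was measured here.

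XBP1, whose mRNA IRE1 splices, was higher. Of the sensor genes, ERN1 was higher at the threshold, EIF2AK3 was lower and ATF6 was not called. XBP1 (ENSG00000100219, chromosome 22, 29190543 to 29196585) had 3301, 3127 and 3273 reads in OV3/SCR and 5174, 5015 and 5417 in OV3/COX1KD. All 3 OV3/COX1KD libraries were higher, from 123 ± 3.32 to 203 ± 2.74 CPM (log2 0.72, SE 0.032, FDR 2.55e-13). The counts join both forms of the XBP1 mRNA. ERN1 (ENSG00000178607, chromosome 17, 62116440 to 62208179), the gene of IRE1, had 229, 173 and 205 reads against 252, 240 and 243. Its log2 fold change of 0.31 (SE 0.096) lay at the threshold (FDR 0.01 when rounded, and just below it unrounded), and the call was lost in 4 of the 6 fits that left out a library, with an FDR up to 0.0704 without OV3/SCR replicate 2. It was also lost with DESeq2 (0.0304), RLE factors (0.0109), a minimum of 10 counts in every library (0.0150) and total count scaling (0.0465).

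EIF2AK3 (ENSG00000172071, chromosome 2, 88856259 to 88991036), the gene of PERK, was lower. It had 756, 631 and 699 reads in OV3/SCR and 467, 490 and 554 in OV3/COX1KD, with no overlap (log2 -0.43, SE 0.065, FDR 1.05e-05). ATF6 (ENSG00000118217, chromosome 1, 161736088 to 161947364) had 1572, 1482 and 1451 reads against 1309, 1150 and 1470. In CPM all 3 OV3/COX1KD libraries were below OV3/SCR, and the log2 fold change of -0.17 (SE 0.053) narrowly missed the call (FDR 0.0107). ATF6 was called lower with total count scaling (0.000371), a minimum of 10 counts in every library (0.00596), a replicate block (0.00599) and no filter (0.00783). It was not called with RLE factors (0.0111) or DESeq2 (0.0199). Without OV3/COX1KD replicate 3, the highest of its condition, the FDR was 0.00156. Without OV3/COX1KD replicate 2, the lowest, the log2 fold change was -0.090 (FDR 0.0643), and without OV3/SCR replicate 1 the FDR was 0.0607. The reads of XBP1 per read of ATF6 went from 2.16 ± 0.0872 to 4.0 ± 0.340 (SD, n = 3 each), a rise that follows from their opposite directions.

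ER-associated degradation sends misfolded proteins to the proteasome. Among its 4 genes listed here, 1 was called, as higher, where 47.9% of all tested genes were called and 25.8% were higher. With only 4 genes, this count cannot be told apart from those shares. SEL1L, the scaffold of the HRD1 ubiquitin ligase, had 3833 to 3895 reads in OV3/SCR and 4414 to 5184 in OV3/COX1KD (log2 0.35, SE 0.037, FDR 1.13e-07). SYVN1, which encodes HRD1 itself, had 3669 to 3897 and 3761 to 3916 reads (log2 0.061, SE 0.037, FDR 0.166). HERPUD1, an ER membrane protein of the same complex, had 751 to 812 and 738 to 828 reads (log2 0.017, SE 0.050, FDR 0.788). EDEM1, which directs glycoproteins to degradation, had 441 to 458 and 411 to 475 reads, a log2 fold change of 2.9e-05 with an SE of 0.072. The ranges of these last 3 genes overlapped between conditions, and the SE bounds how small a change could have been seen.

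On the ATF4 side, the 6 transcription factors split evenly, with 2 higher and 2 lower (66.7% called, against 47.9% of all tested genes). ATF4 (ENSG00000128272, chromosome 22, 39915700 to 39918688) had 5114, 4815 and 4904 reads in OV3/SCR and 3592, 3575 and 3838 in OV3/COX1KD. It was lower in every OV3/COX1KD library, at 143 ± 0.786 against 189 ± 3.62 CPM (SD, n = 3 each), a log2 fold change of -0.40 (SE 0.030, FDR 9.76e-10). ATF5, a relative that is translated in the same way, was lower too, with 582, 582 and 555 against 424, 444 and 506 reads (log2 -0.29, SE 0.060, FDR 0.000355). NUP62 on the opposite strand, with IL4I1, covers 19.5% of the annotated exons of ATF5. NUP62 had 2034 to 2449 reads, more than ATF5, and was not called (log2 -0.11, FDR 0.0213). IL4I1 had 2 to 7 reads. DDIT3 (ENSG00000175197, chromosome 12, 57910371 to 57915520) encodes CHOP, the factor linked to cell death in lasting ER stress. It had 607, 606 and 561 reads against 546, 511 and 560. Its libraries did not overlap in CPM, but the log2 fold change of -0.10 (SE 0.056) was not called (FDR 0.128). Genes on the opposite strand cover 31.6% of its annotated exons, and both (MARS at 8941 to 10866 reads and MBD6 at 2631 to 4099) had more reads than DDIT3 and were lower in OV3/COX1KD.

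CEBPB, a partner of ATF4 and CHOP that also serves inflammation, was higher, with 4186, 3913 and 4048 reads in OV3/SCR and 5688, 5508 and 6008 in OV3/COX1KD (log2 0.53, SE 0.031, FDR 1.67e-11). NUPR1, a small stress-induced chromatin protein, had 170, 209 and 171 against 252, 261 and 282 reads (log2 0.56, SE 0.094, FDR 3.79e-05). Neither overlapped between conditions, nor did 63.2% of all tested genes. CEBPG, which dimerizes with ATF4, had 2571 to 2817 and 2685 to 2879 reads and a log2 fold change of 0.090 (SE 0.035, FDR 0.0351), which was called only without OV3/COX1KD replicate 2 (FDR 0.00449).

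All 4 stress effectors and feedback genes were called, where 47.9% of all tested genes were, and they split by direction. CHAC1 (ENSG00000128965, chromosome 15, 41245160 to 41248710) encodes the enzyme that degrades glutathione. It had 169, 148 and 117 reads in OV3/SCR and 77, 93 and 80 in OV3/COX1KD, the largest fall of the 41 genes at a log2 fold change of -0.76 (SE 0.14, FDR 0.000117) on few reads. PPP1R15A, which encodes GADD34, the phosphatase subunit that reverses eIF2 phosphorylation, had 645, 683 and 710 against 440, 504 and 481 reads (log2 -0.48, SE 0.065, FDR 2.63e-06). DDIT4 (REDD1), an inhibitor of mTORC1, had 428, 404 and 363 against 484, 495 and 577 (log2 0.41, SE 0.069, FDR 3.55e-05). TRIB3, a pseudokinase that represses ATF4 and CHOP, had 1067, 1021 and 1016 against 1209, 1123 and 1181 (log2 0.21, SE 0.045, FDR 0.000487). The call of TRIB3 was lost with total count scaling (FDR 0.0159).

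The serine synthesis pathway was higher at each of its 3 steps. PHGDH (ENSG00000092621, chromosome 1, 120191034 to 120286841), the entry enzyme, had 4475, 4339 and 4299 reads in OV3/SCR and 6401, 6420 and 6710 in OV3/COX1KD (log2 0.61, SE 0.029, FDR 7.42e-13). PSAT1, the transaminase of the second step, had 7020, 6648 and 6647 against 8858, 8748 and 9448 (log2 0.44, SE 0.028, FDR 6.69e-11). PSPH, the phosphatase of the last step, had 772, 898 and 823 against 1109, 1006 and 1151 (log2 0.42, SE 0.058, FDR 3.46e-06). No library of these 3 genes overlapped between conditions, where 63.2% of all tested genes did not overlap. In the mitochondrial one-carbon pathway, which takes up serine, SHMT2 had 5619 to 5801 against 6360 to 6928 reads (log2 0.24, SE 0.029, FDR 6.93e-07) and ALDH1L2 had 991 to 1020 against 1266 to 1439 (log2 0.44, SE 0.043, FDR 3.63e-08). MTHFD2, between them in the pathway, was slightly lower, with 2746 to 2970 against 2381 to 2745 reads (log2 -0.13, SE 0.037, FDR 0.0042), and lost its call without OV3/COX1KD replicate 1 (FDR 0.0179), OV3/SCR replicate 1 (0.0352) or OV3/SCR replicate 3 (0.0266), and with DESeq2 (0.0101) or no filter on low counts (0.0173). SLC4A5 on the opposite strand, at 13 to 30 reads, covers part of the 14.1% of its annotated exons that other genes overlap.

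ASNS (ENSG00000070669, chromosome 7, 97480989 to 97501854), the asparagine synthetase widely used as a readout of ATF4, had 2233, 2177 and 2253 reads in OV3/SCR and 1905, 1987 and 2121 in OV3/COX1KD. It was lower by little (log2 -0.12, SE 0.037, FDR 0.00995), and the call was lost in 5 of the 6 fits that left out a library, with an FDR up to 0.0770 without OV3/SCR replicate 3. It was also lost with DESeq2 (0.0266) and with no filter on low counts (0.0728). The reads of PHGDH per read of ASNS were 1.97 ± 0.0525 in OV3/SCR and 3.25 ± 0.0999 in OV3/COX1KD (SD, n = 3 each). This ratio could not overlap between conditions, as PHGDH was higher and ASNS lower, each without overlap in CPM. CTH, which makes cysteine by transsulfuration, had 71, 71 and 63 against 37, 49 and 53 reads. Its log2 fold change of -0.53 (SE 0.17) was not called at this depth (FDR 0.0124). CTH was called with a minimum of 10 counts in every library (0.00844) and with total count scaling (0.00480). It was not called with RLE factors (0.0113), a replicate block (0.0159), no filter (0.0165) or DESeq2 (0.0426). With a library left out, the FDR ran from 0.00805 without OV3/COX1KD replicate 2 to 0.0723 without OV3/COX1KD replicate 1, where the log2 fold change was -0.40.

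Among the amino acid transporters, 1 gene was lower, 1 was higher and 2 were not called. SLC3A2 (ENSG00000168003, chromosome 11, 62623476 to 62656352), the heavy chain of the leucine transporter LAT1 and of other transporters, had 12872, 12354 and 12461 reads in OV3/SCR and 8481, 8566 and 8771 in OV3/COX1KD (log2 -0.51, SE 0.028, FDR 7.21e-12). SLC7A5, the light chain of LAT1 that carries the amino acid, had 7214, 7836 and 7698 against 7215, 6659 and 7354, which overlapped (log2 -0.069, SE 0.038, FDR 0.13, and 0.00145 with total count scaling). There were 1.66 ± 0.110 reads of SLC3A2 per read of SLC7A5 in OV3/SCR and 1.22 ± 0.0597 in OV3/COX1KD (SD, n = 3 each). SLC1A5, the glutamine exchanger ASCT2, had 7569 to 7987 against 8264 to 9204 reads (log2 0.19, SE 0.029, FDR 1.79e-05). SLC7A1, the cationic amino acid transporter, had 2238 to 2279 against 2034 to 2445 (log2 0.027, SE 0.050, FDR 0.664). Of the tRNA synthetases, SARS, which charges serine tRNA, had 1797 to 1851 against 1923 to 2049 reads (log2 0.14, SE 0.035, FDR 0.00199) and lost its call with total count scaling (0.137), with DESeq2 (0.0122) and without OV3/SCR replicate 1 (0.0101) or 2 (0.0117). WARS, which charges tryptophan tRNA, had 3168 to 3297 against 2992 to 3164 reads, overlapping in CPM (log2 -0.030, SE 0.035, FDR 0.474, and 0.00973 with total count scaling).

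The element bound by ATF4 with C/EBP partners (CARE) was searched for in the same windows as TGATG, then any 1 base, then AA, on both strands. These letters, fewer than those of the ERSE, were found in 1270 of 35116 windows (3.62%) and 1217 of 27305 genes (4.46%). They occurred in 7 of the 36 genes (19.4%), namely ASNS, CEBPG, CHAC1, HERPUD1, SLC1A5, SLC3A2 and SLC7A1. ASNS, CEBPG, SLC1A5 and SLC3A2 also had windows at other starts that held no match. Of the 7, 1 was higher (SLC1A5) and 3 were lower (ASNS, CHAC1 and SLC3A2), with a median log2 fold change of 0.017. Among all tested genes 47.9% were called, with 25.8% higher and 22.1% lower. The 23 genes with neither element in the windows searched had a median of 0.061. HERPUD1 also held the only match among the 36 genes to the related ERSE-II, searched for as ATTGG, 1 base and CCACG, which 19 of 35116 windows held (0.0541%). The ASNS, CHAC1 and HERPUD1 elements are shown with the CARE in capitals, because these genes fell slightly, fell most and did not pass the test.
ASNS (chr7:97872439-97872506, minus strand): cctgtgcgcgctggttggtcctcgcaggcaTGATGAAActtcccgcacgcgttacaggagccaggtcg
CHAC1 (chr15:40953232-40953299, plus strand): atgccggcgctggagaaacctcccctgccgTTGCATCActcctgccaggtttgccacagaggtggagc
HERPUD1 (chr16:56931936-56932003, plus strand): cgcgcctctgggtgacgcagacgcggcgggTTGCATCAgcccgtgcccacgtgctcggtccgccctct

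**Figure D3:**
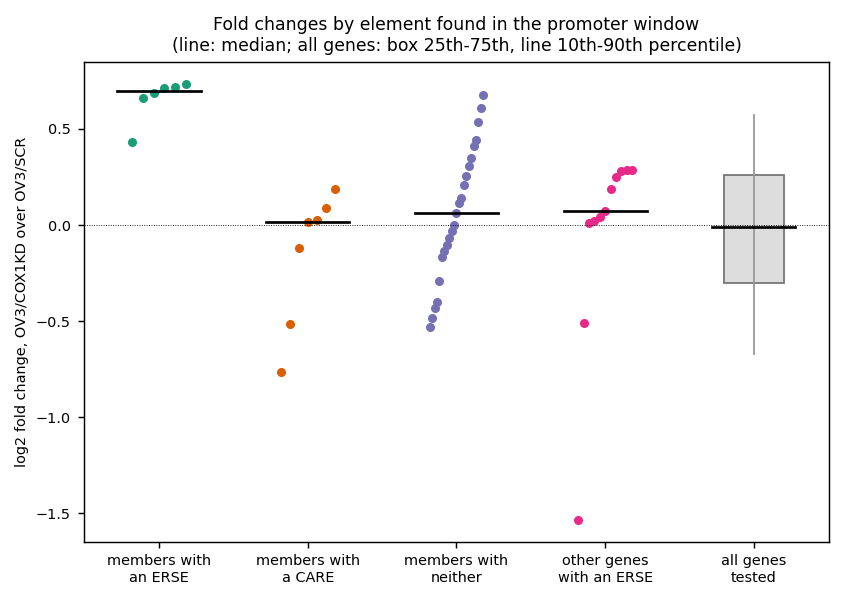
Log2 fold change (vertical axis) of the genes whose promoter window held an ERSE, a CARE or neither, of the 11 other tested genes with an ERSE, and of all 17309 tested genes (box, 25th to 75th percentile, and line, 10th to 90th), with medians as black lines. The 6 genes of the pathways with an ERSE lie between 0.43 and 0.74, above the medians of the other groups.

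Per kb of transcript, the abundance of the 41 genes covered a wide range. HSP90B1 was the most abundant in both conditions, at 577 CPM per kb in OV3/SCR and 930 in OV3/COX1KD. CALR followed, at 315 and 516. Next in OV3/SCR was SLC3A2 at 254, ahead of HSPA5 at 209, and in OV3/COX1KD SLC3A2 was in eighth place at 178 while HSPA5 had moved up to 347, next after CALR. CANX and PDIA3 were next to each other in OV3/SCR, at 197 CPM per kb each. ATF4 went from eighth place (133 CPM per kb) to fifteenth (101), and XBP1 stood in fifteenth place in OV3/SCR (68.9) and in fourteenth in OV3/COX1KD (113). The sensor EIF2AK3 had 5.84 and 4.32 CPM per kb, ATF6 had 7.66 and 6.82, and ERN1 had 0.977 and 1.21, among the lowest of the 41 beside CTH at 1.25 and 0.862. These levels rest on the length of 1 annotated transcript per gene and order genes only roughly. Within a library, HSPA5 had 4.34 ± 0.0711 reads per ATF4 read in OV3/SCR and 9.53 ± 0.116 in OV3/COX1KD (SD, n = 3 each), a ratio that needs no scaling between libraries. Its rise follows from the opposite directions of HSPA5 and ATF4 given above.

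**Figure D4:**
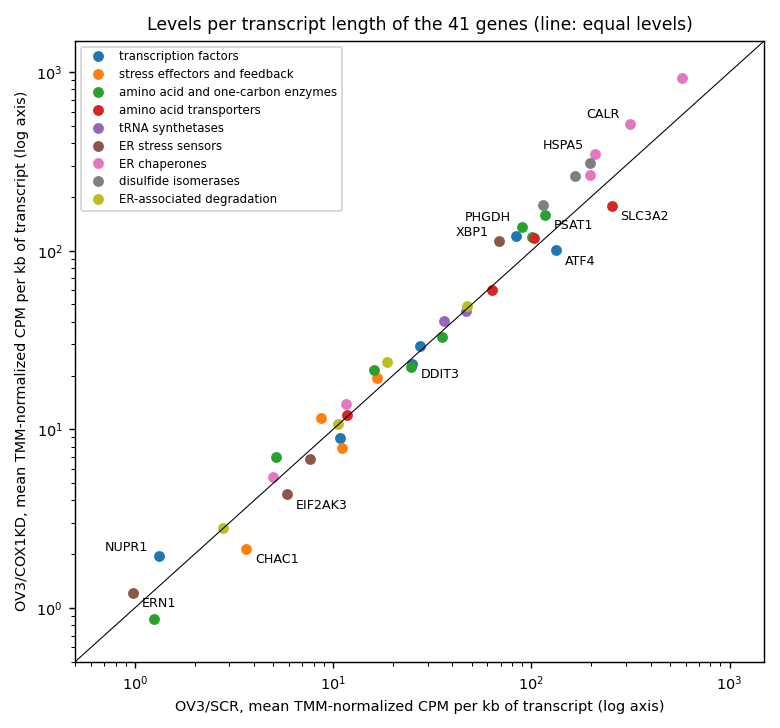
Mean TMM-normalized CPM per kb of transcript of each of the 41 genes in OV3/SCR (horizontal, log axis) and OV3/COX1KD (vertical, log axis), coloured by role, with the line of equal levels. The most abundant chaperones and isomerases lie above the line, and ATF4, SLC3A2, CHAC1 and EIF2AK3 lie below it.

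A further 82 genes of the same pathways, listed by name with earlier results of these data known, were read from the same fit. Of these, 80 were tested, and 42 of them (52.5%) were higher and 20 lower, with a median log2 fold change of 0.19, where 25.8% of all tested genes were higher and 22.1% lower. Genes of ER folding were mostly higher, 11 of 14 with 1 lower and a median of 0.35. The same held for ER-associated degradation and translocation, with 10 of 15 higher, 1 lower and a median of 0.27. All 6 tested genes of ATF6 processing and its relatives were higher, with a median of 0.44, including both proteases that cut ATF6, MBTPS1 (log2 0.48, SE 0.031, FDR 6.52e-11) and MBTPS2. The IRE1 partner TRAF2 was lower (log2 -0.33, SE 0.055, FDR 4.03e-05). The cytosolic aminoacyl-tRNA synthetases went both ways, with 5 of 18 higher (27.8%, near the share over all genes), 8 lower (44.4%) and a median of -0.063. So did the 20 other integrated stress response genes, with 8 higher, 7 lower and a median of 0.10, and the 6 genes of eIF2 kinases and dephosphorylation, with 2 higher and 2 lower. Of the other eIF2 kinases, EIF2AK1 (HRI) was higher (log2 0.43, SE 0.028, FDR 1.21e-10), EIF2AK4 (GCN2) was higher (log2 0.36, SE 0.044, FDR 8.68e-07) and EIF2AK2 (PKR) was not called (log2 0.052, FDR 0.23).

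Among these further genes, the 4 largest falls and 4 largest rises stood as follows. ATF3, a stress-induced repressor downstream of ATF4, had 477, 473 and 473 reads in OV3/SCR and 126, 127 and 133 in OV3/COX1KD, or 18.1 ± 0.204 against 5.02 ± 0.0403 CPM (log2 -1.85, SE 0.077, FDR 1.02e-13). No gene among the 41 changed by as much. ERO1L, the oxidase that supplies the disulfide isomerases with oxidizing power, had 3434, 3359 and 3442 against 1553, 1607 and 1712 reads (log2 -1.04, SE 0.035, FDR 4.42e-15), opposite to the 3 isomerases. SEC61B, a subunit of the translocation channel, had 1192 to 1252 against 638 to 715 reads (log2 -0.85, SE 0.046, FDR 5.9e-12). FAM129A (NIBAN1) had 634 to 672 against 349 to 412 (log2 -0.78, SE 0.071, FDR 1.25e-08). Upward, PYCR1, the last enzyme of proline synthesis, had 238, 254 and 203 against 390, 393 and 432 reads (log2 0.84, SE 0.080, FDR 2.51e-08). SDF2L1, a BiP cofactor, had 366 to 433 against 588 to 631 (log2 0.69, SE 0.070, FDR 6.18e-08). MBTPS2 had 514 to 530 against 729 to 848 (log2 0.62, SE 0.055, FDR 9.22e-09), and EDEM2, a mannosidase family member of ER-associated degradation, had 571 to 585 against 762 to 871 (log2 0.54, SE 0.055, FDR 6.26e-08). None of these 8 genes overlapped between conditions, which their choice as called genes with the largest changes nearly fixed in advance. Of all tested genes, 63.2% did not overlap.

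Processed pseudogenes can take reads from their parent genes. The 12 pseudogene rows of ASNS, ATF4, HSP90B1, PSAT1, PSPH and XBP1 had between 0 and 26 reads in any library.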

How the data were processed

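RNA-seq measured 3 OV3/SCR and 3 OV3/COX1KD libraries made with the Illumina TruSeq RNA kit. Reads had been aligned to hg19 by TopHat2 (version 2.0) and assigned to genes by HTSeq. The authors deposited raw counts, with no normalization. The annotation and strand setting of the counting are not given in the sources used here. Groups and replicate numbers came from the labels. The chosen genes and every list were taken with earlier results of these data known.

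Counts were tested with edgeR 4.0.16 in R 4.3.3 (TMM factors 0.970 to 1.04, filterByExpr, quasi-likelihood, 2-sided, condition only), giving a common coefficient of variation of 3.21%. SE is the log2 fold change divided by the square root of F. CPM are counts scaled by library total and TMM factor. Ratios of reads are of pairs of genes chosen by hand. Libraries of a condition differed by more than sampling noise (chi-square per degree of freedom 1.82 to 6.40, against 46.2 to 61.0 between conditions), so none was a repeat deposit. Depth was 25291505 to 27391538 reads. The code was tested on simulated data.

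All 41 genes are named. Reads in every library are given for the regulators ATF4, DDIT3, XBP1, ATF6, ERN1, EIF2AK3, HSPA5 and ASNS, for any called gene with a log2 fold change of at least 1 in size (no gene among the 41) and for others where described. Of the further genes, the 4 largest rises and falls among called genes whose mean log2 CPM was 1 or more are named. Positions and lengths came from GENCODE 44 lifted to GRCh37 (33556 of 34811 genes matched), using the canonical transcript, or the longest where none is marked. Promoter windows came from RefSeq on GRCh38.p14. Alternatives were DESeq2 1.42.0, RLE factors, total count scaling, a minimum of 10 counts in every library, no filter, a replicate block and leaving out each library. SELS and PECAM1 were not matched and CREB3L1 (6 to 8 reads) and ERN2 (2 to 6) were too low to test.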

Additional observations from a re-analysis of the deposited data

How the results depend on the processing

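Of the 30 called genes, 25 kept their call and direction in all 12 alternatives. The other 5 were TRIB3, ASNS, MTHFD2, SARS and ERN1, and all 5 lie within 0.31 of 0 on the log2 scale. The number called was 26 with DESeq2, 29 with RLE factors, 31 with a minimum of 10 counts, 29 with no filter and 31 with total count scaling, and 27 to 32 with a library left out. Over all genes, 8293 were called, 7143 with DESeq2 and 7124 to 8989 with a library left out. Genes near 0 changed sign without being called. EDEM1 was at -0.0043 with DESeq2, -0.0049 with RLE factors, -0.017 with a minimum of 10 counts, -0.00085 with a replicate block and -0.077 with total count scaling, and between -0.072 and 0.073 with a library left out. HERPUD1 was at -2.9e-05 with a minimum of 10 counts, -0.060 with total count scaling, and between -0.0035 and 0.045 with a library left out. SLC7A1 was at -0.051 with total count scaling and between -0.048 and 0.088 with a library left out, and SYVN1 at -0.017 with total count scaling. The cause was not tested. Libraries of the same number did not deviate together (correlations across genes of 0.0045, 0.042 and 0.0090, against -0.027 to 0.018 for different numbers), and with the replicate block 30 of the genes and 8233 of all genes were called, ASNS losing its call and ATF6 gaining one. Depth limits the genes under 300 reads, CHAC1, CTH, NUPR1 and ERN1, where the SE was 0.094 to 0.17.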

Other observations

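The machinery that receives and modifies proteins entering the ER was read from the same fit with lists chosen after the values above were seen. The oligosaccharyltransferase complex attaches N-glycans to nascent proteins, and 10 of its genes were listed. All 10 listed genes were higher in OV3/COX1KD, against 25.8% of all tested genes. Their log2 fold changes were 0.16 to 0.54, with a median of 0.38. They were led by MAGT1 (3444 to 3619 reads in OV3/SCR and 4804 to 5265 in OV3/COX1KD, log2 0.54) and the catalytic subunit STT3B (7303 to 7760 and 10066 to 11398, log2 0.53). The other catalytic subunit, STT3A, had 3975 to 4069 and 4345 to 4764 reads (log2 0.20, SE 0.031, edgeR FDR 1.32e-05). Of the signal peptidase genes, 4 of 5 were higher, including SEC11A (2405 to 2494 and 3624 to 3928, log2 0.64), and its paralog SEC11C was not called (533 to 604 and 481 to 529, log2 -0.14, SE 0.060, edgeR FDR 0.056).

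The steps before and after these were read in the same way, where 25.8% of all tested genes were higher and 22.1% lower. The signal recognition particle and its receptor gave 3 higher and 3 lower of 8, with a median of 0.085. The COPII coat carries cargo out of the ER. The 12 genes listed for it and for cargo export gave 2 higher and 2 lower, with a median of -0.023 (33.3% called, against 47.9% of all tested genes). SEC23A, the inner coat subunit, had 2657 to 2847 reads in OV3/SCR and 2068 to 2396 in OV3/COX1KD (log2 -0.30, SE 0.039, edgeR FDR 1.95e-06).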
